A study of Mus musculus with 18 samples.

Results

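The 10 genes described here encode secreted or shed factors that fibroblasts can send to blood vessels, lymphatic vessels and epithelia, and they were chosen by symbol from the 38924 genes of the count table: *Vegfc*, *Pgf*, *Angpt1*, *Angpt2*, *Angptl4*, *Hgf*, *Fgf2*, *Fgf7*, *Fgf10* and *Hbegf*. Each symbol matched 1 Ensembl gene, and all 10 passed the filter on low counts. Fibroblasts had been isolated from the heart, kidney and tail of 10-week-old male mice of the Rosa mT/mG reporter line on a C57BL/6 background, which labels cells with a red membrane fluorophore, and were grown for 10 days. Portions of 400000 to 500000 cells were then placed on gelatin foam beneath the capsule of a kidney of syngeneic C57BL/6J recipients aged 10 to 11 weeks, and live CD45-;TdTomato+ cells were sorted 3 days later, and the groups are named HFs (heart), KFs (kidney) and TFs (tail). The cells that were not transplanted were plated again and served as controls in culture, named HFc, KFc and TFc in the same order. RNA was sequenced in 3 libraries per group, 18 in all. The paper names a stranded total RNA kit for cells isolated from the kidney capsule and does not state the kit for these cultured controls. A difference of kit between the states, if there was one, cannot be told apart from transplantation. The gate at harvest of the transplanted cells selected for the donor reporter and against leukocytes, and it held no endothelial marker. The study's general isolation method includes a sort for CD90+;CD45-;CD31- cells, and whether it was applied to the cells of these 6 groups is not clear from the sources used here.

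Vascular endothelial growth factors, angiopoietins and fibroblast growth factors act through receptor tyrosine kinases on neighbouring cells, and mesenchymal cells are a main source of several of them. Ligands such as HGF, FGF7 and FGF10 are classic signals from stroma to epithelium, whereas VEGF-C, PlGF (the product of *Pgf*) and the angiopoietins act on endothelium of lymphatic or blood vessels. In kidney, heart and skin these factors take part in growth of vessels, in epithelial repair and in the response to low oxygen.

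Library totals lay between 17927838 and 32245168 counts, and levels are given as CPM, which are counts scaled to a common effective library size after TMM normalization. The detection floor was set at 3 counts, equal to 0.0890 to 0.180 CPM on this scale, and covers counting error only. The paper calls the replicates of this experiment biological. Neither it nor the labels say whether these were separate animals or cultures, so p-values measure the spread between these libraries. The library labelled KFs replicate 3 stood apart, with 1492 CPM of *Xist* against at most 0.404 CPM in the other 17 libraries, and with 0.722 CPM of Y-linked genes against 175 to 230 CPM, although the donors are given as male. These levels do not match male donor cells, and the library is named Kidney-Fibros, unlike the pattern of the other 17 names. Which cells it holds was not tested, which limits every KFs mean and kidney response that includes it. Since all 18 libraries share a fit, it also enters the spread behind the p-values of comparisons without KFs. It was kept in the KFs values, and results whose call it changes are also given without it. The 10 fibroblast markers, *Col1a1* and *Pdgfra* among them, summed to 19041 to 26346 CPM in the cultured libraries, and to 79921 to 130800 CPM in HFs, 34650 to 42254 CPM in TFs and 98545, 75197 and 21190 CPM in KFs replicates 1, 2 and 3, and markers of kidney tubules appeared in the transplanted groups, as described with the marker lists further on.

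Within a group, levels of different genes were compared per length, as TPM, which are counts divided by exon length and scaled to a common total. In culture, *Fgf7* had the highest TPM of the 10 factors in KFc (69.6 ± 4.09, SD, n = 3) and TFc (158 ± 4.55, n = 3), whereas *Hbegf* led in HFc (31.2 ± 1.72, n = 3). After transplantation *Angptl4* had the highest TPM in all 3 organs, at 225 ± 33.9 in HFs, 150 ± 11.2 in KFs and 202 ± 14.9 in TFs (SD, n = 3 each). *Vegfc* was in second place in HFs (37.6 ± 7.35) and KFs (59.9 ± 20.0), and *Fgf7* in TFs (92.2 ± 9.64). *Fgf10* was the lowest of the 10 in each transplanted group, between 0.103 ± 0.119 TPM in HFs and 2.29 ± 1.25 TPM in KFs.

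**Figure D1:**
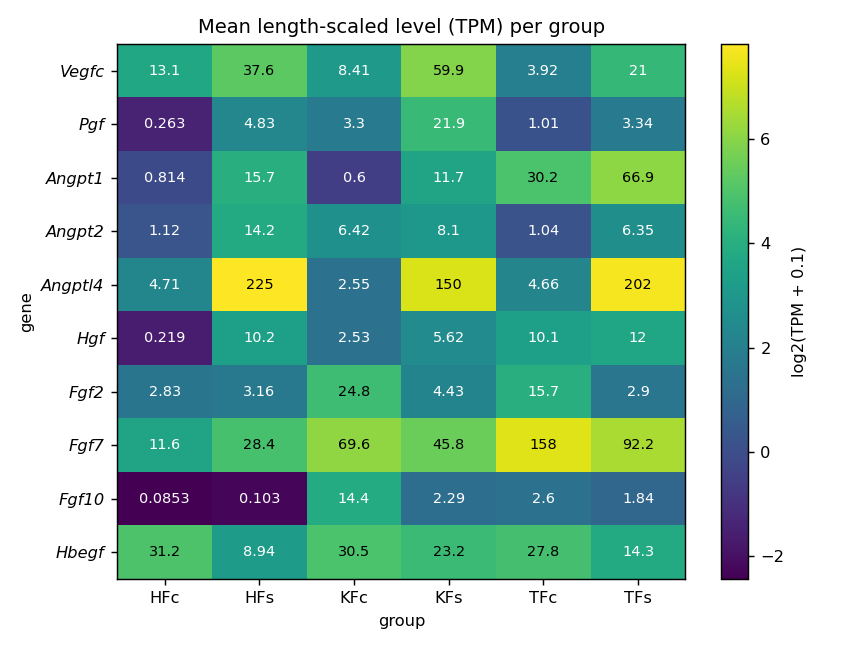
Mean level of each factor (rows) in each group (columns) in TPM, the mean of 3 libraries; the colour scale is log2(TPM + 0.1). *Angptl4* lies between 2.55 and 4.71 TPM in the cultured groups and between 150 and 225 TPM in the transplanted groups, and *Fgf10* is under 0.11 TPM in both heart groups.

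**Figure D2:**
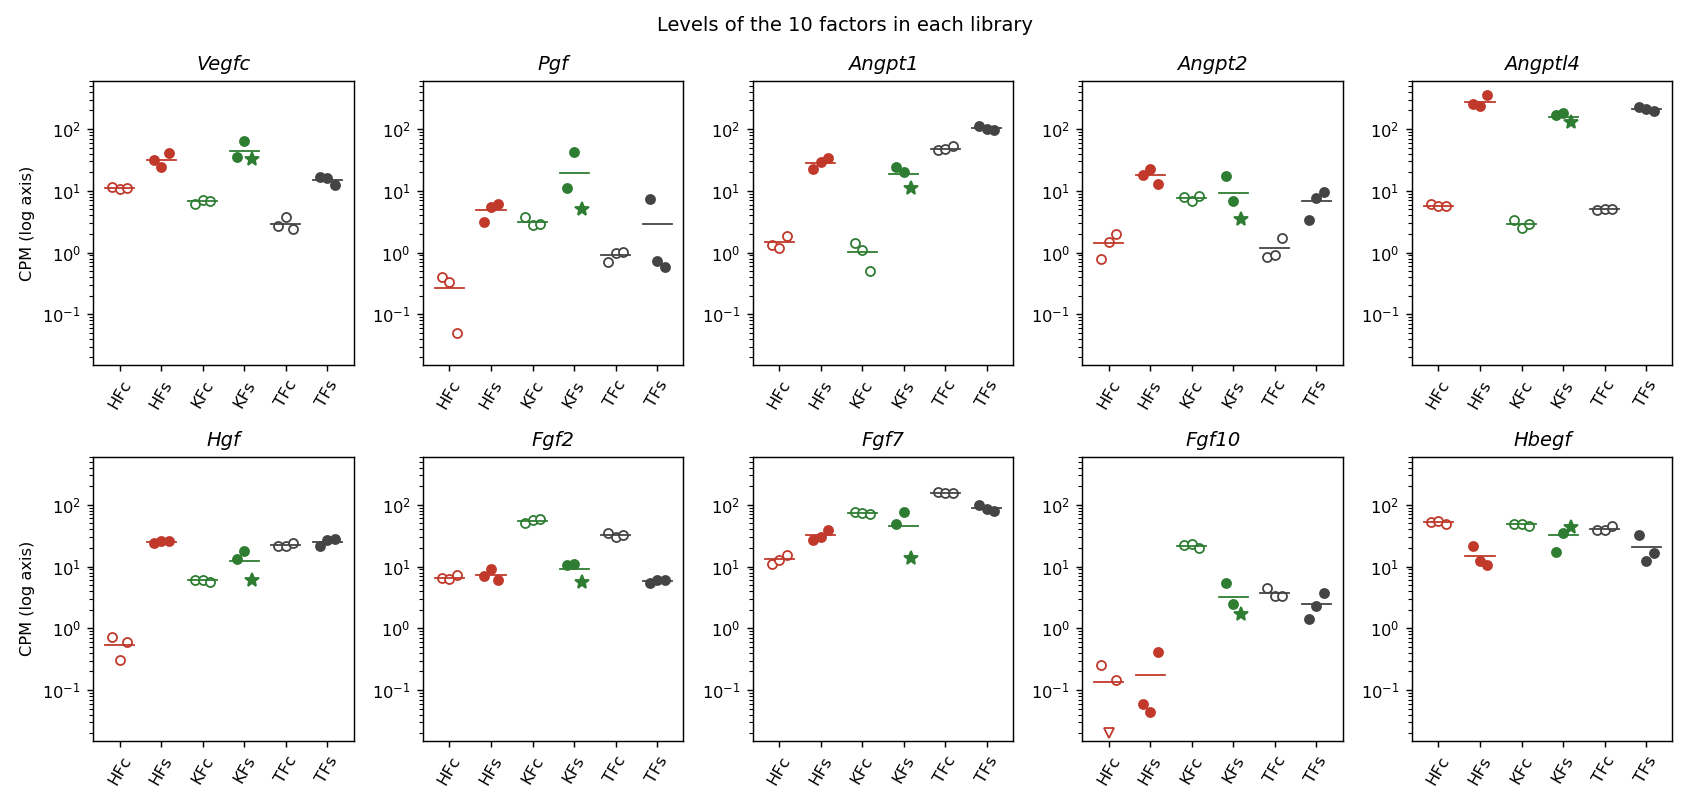
Level of each factor in each library in CPM on a log axis, with open symbols for cultured and filled symbols for transplanted cells, a bar at the group mean (n = 3) and a star for the library labelled KFs replicate 3. A triangle at the foot of the axis marks the HFc library in which *Fgf10* had 0 counts. *Angptl4* shows a gap between cultured libraries (at most 6.12 CPM) and transplanted libraries (at least 130 CPM), and *Pgf* shows the widest spread among the transplanted kidney and tail libraries.

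RefSeq promoter windows on GRCm38.p6 were found for 6 of the 10 genes, and no entry was found for *Angpt1*, *Angpt2*, *Angptl4* and *Hbegf*. The 4 windows that held no annotated exon of their own gene are shown because they belong to factors with different patterns: *Vegfc* rose in every organ, *Hgf* rose in heart and kidney fibroblasts, *Fgf7* passed the threshold as a rise in heart fibroblasts, and *Fgf10* fell in kidney fibroblasts. Exons of other genes were not checked for these windows, and the *Fgf10* window lies inside the GENCODE span of that gene. Each holds the 250 bases before the RefSeq start, all on the plus strand: chr8:54077282-54077531 for *Vegfc*, chr5:16553245-16553494 for *Hgf*, chr2:126034408-126034657 for *Fgf7* and chr13:118714449-118714698 for *Fgf10*. Capitals mark the letters GCGTG (1 of the core motifs of a hypoxia response element, the other being ACGTG; read on either strand, so that it may appear as its reverse complement) or GGGCGG (the GC box bound by Sp factors, also on either strand).
Vegfc: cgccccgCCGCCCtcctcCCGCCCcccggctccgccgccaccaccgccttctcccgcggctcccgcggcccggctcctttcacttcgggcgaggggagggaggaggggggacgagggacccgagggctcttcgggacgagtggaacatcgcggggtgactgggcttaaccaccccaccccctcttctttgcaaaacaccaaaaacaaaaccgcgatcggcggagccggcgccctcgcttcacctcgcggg
Hgf: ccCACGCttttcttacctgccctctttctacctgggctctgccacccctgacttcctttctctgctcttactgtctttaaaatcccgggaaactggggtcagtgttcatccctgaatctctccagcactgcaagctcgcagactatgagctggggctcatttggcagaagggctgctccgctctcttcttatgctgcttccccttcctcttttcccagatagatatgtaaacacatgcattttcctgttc
Fgf7: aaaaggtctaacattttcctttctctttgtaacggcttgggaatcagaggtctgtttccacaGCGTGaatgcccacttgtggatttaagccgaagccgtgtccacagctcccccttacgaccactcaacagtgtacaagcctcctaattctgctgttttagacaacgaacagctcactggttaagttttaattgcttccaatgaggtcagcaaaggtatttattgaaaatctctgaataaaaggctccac
Fgf10: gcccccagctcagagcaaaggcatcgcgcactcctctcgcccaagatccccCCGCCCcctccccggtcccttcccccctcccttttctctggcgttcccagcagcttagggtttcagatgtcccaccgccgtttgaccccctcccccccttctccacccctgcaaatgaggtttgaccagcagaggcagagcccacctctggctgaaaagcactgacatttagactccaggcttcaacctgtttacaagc

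The *Vegfc* window was rich in G and C (71.6%, above 92.7% of all 32851 windows) and held GGGCGG on 2 sites, 243 and 232 bases before the start. The *Fgf10* window had 61.2% G and C and held GGGCGG on 1 site, 199 bases before the start, and 32.7% of all windows held this motif. The *Fgf7* window had 43.6% G and C, above 20.1% of all windows, and held GCGTG 188 bases before the start, and the *Hgf* window had 50.8% G and C and held GCGTG 248 bases before the start. GCGTG occurred in 28.2% of all windows. None of the 4 windows held ACGTG (16.6% of all windows), TGANTCA (the AP-1 motif, 6.75%), TATAAA (12.4%) or the NF-kB motif (7.25%), all searched on both strands. These are matches of letters in a short window, and no binding was measured.

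*Vegfc* (chromosome 8, 54077606 to 54187096, plus strand, GRCm38) encodes the ligand of FLT4 that drives growth of lymphatic vessels. Its level was 11.4, 10.7 and 11.2 CPM in HFc, 6.19, 7.19 and 6.78 CPM in KFc and 2.73, 3.73 and 2.41 CPM in TFc (replicates 1, 2 and 3 here and below). After transplantation it was 31.6, 24.2 and 40.6 CPM in HFs, 35.3, 63.3 and 33.4 CPM in KFs and 17.0, 15.9 and 12.6 CPM in TFs. Every transplanted library was above every cultured library, also across organs. Separation of the 3 transplanted from the 3 cultured libraries of an organ was common, with 67.28% of all genes tested in heart, 51.2% in kidney and 60.4% in tail fibroblasts.

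*Vegfc* rose with transplantation by a log2 fold change of 1.54 ± 0.24 (SE) in heart (edgeR's quasi-likelihood test, adjusted p = 5.68e-05), 2.71 ± 0.25 in kidney (edgeR adjusted p = 5.22e-07) and 2.36 ± 0.26 in tail fibroblasts (edgeR adjusted p = 5.07e-06). The response of heart fibroblasts was smaller than that of kidney fibroblasts (difference -1.17 ± 0.33 on the log2 scale, edgeR interaction term, adjusted p = 0.0164), which no longer passed without KFs replicate 2 (-0.75, adjusted p = 0.0529 by edgeR) or HFs replicate 2 (-0.94, adjusted p = 0.0668 by edgeR). The order of the organs changed between states: heart fibroblasts had the highest *Vegfc* level in culture, and KFs had the highest mean after transplantation (44.0 ± 16.7 CPM, SD, n = 3), with a range that overlapped that of HFs (32.1 ± 8.21 CPM). TFs lay below both, with log2 differences of 1.08 ± 0.23 for HFs minus TFs (edgeR adjusted p = 0.00326) and 1.54 ± 0.24 for KFs minus TFs (edgeR adjusted p = 0.000197).

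*Pgf* (chromosome 12, 85166635 to 85177790, minus strand) encodes placental growth factor, which binds FLT1. Cultured cells had 0.401, 0.338 and 0.0491 CPM in HFc, 3.73, 2.83 and 2.86 CPM in KFc and 0.712, 0.981 and 1.01 CPM in TFc. Transplanted cells had 3.13, 5.55 and 6.04 CPM in HFs, 11.0, 42.9 and 5.17 CPM in KFs and 7.28, 0.727 and 0.594 CPM in TFs. The high values of 42.9 and 7.28 CPM each came from 1 library of their group.

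In heart fibroblasts *Pgf* rose by a log2 fold change of 4.13 ± 1.00 (edgeR adjusted p = 0.00255). The rise in kidney fibroblasts, 2.65 ± 0.82 (edgeR adjusted p = 0.0141), was 1.32 without KFs replicate 2 (adjusted p = 0.164 by edgeR) and also missed the threshold without KFc replicate 2 (2.58, adjusted p = 0.0501 by edgeR), whereas it was 3.06 without KFs replicate 3 (adjusted p = 0.00222 by edgeR). The change in tail fibroblasts did not pass (1.65 ± 0.88, edgeR adjusted p = 0.151), and its sign rested on TFs replicate 1, without which it was -0.44. KFs exceeded TFs by 2.81 ± 0.83 (edgeR adjusted p = 0.0194), a value that rose to 4.89 without TFs replicate 1 and missed the threshold without KFs replicate 2 (1.53), TFs replicate 2 (2.34) or TFs replicate 3 (2.31).

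*Angpt1* (chromosome 15, 42424723 to 42676977, minus strand) encodes the agonist of the endothelial receptor TEK that stabilizes vessels. In culture it was highest in tail fibroblasts, at 45.6, 46.9 and 52.3 CPM in TFc, against 1.35, 1.18 and 1.87 CPM in HFc and 1.45, 1.12 and 0.498 CPM in KFc. After transplantation it stood at 23.0, 28.9 and 33.5 CPM in HFs, 24.5, 20.1 and 10.9 CPM in KFs and 112, 99.1 and 97.2 CPM in TFs. The 3 TFs libraries were the highest of all 18, and the HFs and KFs libraries moved from near 1 CPM to the range between 10.9 and 33.5 CPM.

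The log2 fold change of *Angpt1* was 4.30 ± 0.32 in heart (edgeR adjusted p = 5.11e-08), 4.18 ± 0.33 in kidney (edgeR adjusted p = 1.21e-07) and 1.09 ± 0.26 in tail fibroblasts (edgeR adjusted p = 0.00368). The rise in tail fibroblasts was smaller than that in heart fibroblasts by 3.21 ± 0.40 (edgeR interaction term, adjusted p = 5.96e-05) and than that in kidney fibroblasts by 3.10 ± 0.41 (edgeR interaction term, adjusted p = 0.000271). The responses of heart and kidney fibroblasts differed by 0.11 ± 0.46 (edgeR adjusted p = 0.898), a difference that changed sign without HFc replicate 2 (-0.027), KFc replicate 1 (-0.22) or KFs replicate 3 (-0.086). Relative to tail fibroblasts the log2 difference was -5.06 ± 0.33 in HFc and -5.57 ± 0.34 in KFc (edgeR adjusted p = 9.4e-09 and 1.02e-08), and -1.85 ± 0.26 in HFs and -2.47 ± 0.27 in KFs (edgeR adjusted p = 0.000108 and 9.45e-06). *Angpt1* overlaps exons of the predicted gene *Gm17473* on the other strand, which stranded counting separates.

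*Angpt2* (chromosome 8, 18690263 to 18741562, minus strand) encodes the ligand that mostly opposes ANGPT1 at TEK and loosens vessels. The cultured groups had 0.802, 1.49 and 2.01 CPM in HFc, 7.98, 6.95 and 8.34 CPM in KFc and 0.861, 0.903 and 1.75 CPM in TFc. The transplanted groups had 17.9, 23.0 and 12.7 CPM in HFs, 17.6, 6.76 and 3.49 CPM in KFs and 3.37, 7.59 and 9.71 CPM in TFs. KFc thus held the highest level in culture, and the KFs libraries fell on both sides of it.

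*Angpt2* rose in heart (log2 fold change 3.65 ± 0.56, edgeR adjusted p = 5.33e-05) and tail fibroblasts (2.58 ± 0.55, edgeR adjusted p = 0.00183), and the value in kidney fibroblasts was 0.26 ± 0.49 (edgeR adjusted p = 0.688). That value was -0.59 without KFs replicate 1 and 0.60 without KFs replicate 3. The response of heart fibroblasts exceeded that of kidney fibroblasts by 3.39 ± 0.73 (edgeR interaction term, adjusted p = 0.0032). The kidney and tail responses differed by -2.32 ± 0.73 (edgeR adjusted p = 0.0545), which passed the threshold without KFs replicate 1 (-3.17), KFs replicate 3 (-1.97) or TFs replicate 1 (-2.64). Among transplanted cells HFs and TFs differed by 1.37 ± 0.50 (edgeR adjusted p = 0.06). That difference passed without KFs replicate 3 (1.37), with DESeq2 (1.40) or with only the 2 groups in the fit (1.40). Endothelial cells are a known source of *Angpt2*, and the summed level of 12 endothelial markers was 82.4 to 94.1 CPM in HFs against 50.9 to 53.4 CPM in HFc, 65.1 to 69.5 CPM in TFs against 51.2 to 57.7 CPM in TFc, and 47.5 to 67.2 CPM in KFs against 44.2 to 48.1 CPM in KFc. Of the 10 endothelial markers tested, 9 were higher in heart, 4 were higher and 1 lower in kidney and 3 were higher in tail fibroblasts. Among all genes tested, 18.3% were higher in heart, 14.7% were higher and 7.99% lower in kidney and 11% were higher in tail fibroblasts. *Cldn5* and *Sox17* were at 0 in every cultured library and at mean levels of at most 0.21 CPM in the transplanted groups. The part of such cells in the *Angpt2* result was not tested.

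*Angptl4* (chromosome 17, 33773750 to 33781830, minus strand) encodes a secreted inhibitor of lipoprotein lipase, known to be induced by fatty acids through PPARs and by low oxygen. It was at 6.12, 5.58 and 5.60 CPM in HFc, 3.43, 2.51 and 2.92 CPM in KFc and 4.96, 5.14 and 5.13 CPM in TFc. It reached 250, 234 and 353 CPM in HFs, 168, 181 and 130 CPM in KFs and 229, 209 and 195 CPM in TFs. The lowest transplanted library was far above the highest cultured library.

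The log2 fold change of *Angptl4* was the largest of the 10 factors in kidney and tail fibroblasts and, in heart fibroblasts, lay within 1 SE of that of *Hgf* (5.55 ± 0.36): 5.59 ± 0.18 in heart (edgeR adjusted p = 4.83e-11), 5.75 ± 0.19 in kidney (edgeR adjusted p = 4.69e-11) and 5.38 ± 0.18 in tail fibroblasts (edgeR adjusted p = 8.18e-11). The 3 differences between these responses lay between -0.16 ± 0.22 (heart and kidney) and 0.37 ± 0.23 (kidney and tail), with edgeR adjusted p between 0.321 and 0.658, and the difference between heart and kidney changed sign without HFs replicate 2 (0.022) or KFs replicate 2 (0.0018). Among transplanted cells HFs exceeded KFs by 0.81 ± 0.15 (edgeR adjusted p = 0.000694). The difference of KFs from TFs, -0.41 ± 0.15 (edgeR adjusted p = 0.0477), missed the threshold without KFs replicate 1 (-0.44), KFs replicate 3 (-0.28), TFs replicate 1 (-0.34), TFs replicate 2 (-0.41) or TFs replicate 3 (-0.46). The difference of HFs from TFs, 0.40 ± 0.15 (edgeR adjusted p = 0.0592), passed it without HFs replicate 1 (0.51), HFs replicate 2 (0.55) or KFs replicate 3 (0.42).

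*Hgf* (chromosome 5, 16553495 to 16620152, plus strand) encodes hepatocyte growth factor, the ligand of MET and a mitogen for epithelium and endothelium. Cultured cells of the 3 organs differed widely, with 0.729, 0.305 and 0.590 CPM in HFc, 6.12, 6.04 and 5.68 CPM in KFc and 21.4, 21.2 and 24.3 CPM in TFc. Transplanted cells had 23.9, 25.6 and 26.4 CPM in HFs, 13.3, 17.6 and 6.09 CPM in KFs and 21.6, 26.6 and 28.1 CPM in TFs. The HFs libraries thus lay within the range of the TFs libraries, although HFc had been the lowest group.

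*Hgf* rose by a log2 fold change of 5.55 ± 0.36 in heart fibroblasts (edgeR adjusted p = 1.17e-08), and by 1.06 ± 0.27 in kidney fibroblasts (edgeR adjusted p = 0.00484), where the value was 0.66 without KFs replicate 2, under the limit of 1, and 1.34 without KFs replicate 3, and where the call was lost with only the 2 groups in the fit (adjusted p = 0.0729 by edgeR). In tail fibroblasts it was 0.19 ± 0.26 (edgeR adjusted p = 0.599). The response of heart fibroblasts exceeded that of tail fibroblasts by 5.36 ± 0.44 (edgeR interaction term, adjusted p = 1.94e-06) and that of kidney fibroblasts by 4.49 ± 0.45 (edgeR interaction term, adjusted p = 1.18e-05). The kidney and tail responses differed by 0.87 ± 0.38 (edgeR adjusted p = 0.16), and by 1.17 without KFs replicate 3 (edgeR adjusted p = 0.00161). HFc was below TFc, with a log2 difference of -5.37 ± 0.36 (edgeR adjusted p = 1.2e-08), and the same difference after transplantation was -0.0086 ± 0.26 (edgeR adjusted p = 0.987), with a sign that changed with the library left out and the scaling used. KFs was below both others after transplantation, with log2 differences of 1.03 ± 0.27 for HFs minus KFs (edgeR adjusted p = 0.00814) and -1.04 ± 0.27 for KFs minus TFs (edgeR adjusted p = 0.00882), and both calls were lost with only the 2 groups in the fit (edgeR adjusted p = 0.123 and 0.139). The exons of *Hgf* overlap those of *Gm43489* on the same strand, so reads could be split between them.

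*Fgf2* (chromosome 3, 37348346 to 37410108, plus strand) encodes basic fibroblast growth factor, which acts on mesenchyme and endothelium. It was high in 2 of the cultured groups, with 50.4, 55.8 and 58.3 CPM in KFc and 34.96, 30.5 and 32.8 CPM in TFc, against 6.41, 6.33 and 7.17 CPM in HFc. The transplanted groups had 6.91, 9.03 and 6.11 CPM in HFs, 10.8, 10.9 and 5.65 CPM in KFs and 5.35, 6.09 and 5.98 CPM in TFs. The KFs and TFs libraries lay below all libraries of KFc and TFc, and the ranges of HFs and HFc overlapped.

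*Fgf2* fell, with log2 fold changes of -2.59 ± 0.20 in kidney (edgeR adjusted p = 1.06e-07) and -2.49 ± 0.20 in tail fibroblasts (edgeR adjusted p = 3.33e-07), and in heart fibroblasts it was 0.15 ± 0.20 (edgeR adjusted p = 0.544). The heart response differed from the tail response by 2.64 ± 0.28 (edgeR interaction term, adjusted p = 1.43e-05) and from the kidney response by 2.74 ± 0.28 (edgeR interaction term, adjusted p = 1.56e-05), while the kidney and tail responses differed by -0.09 ± 0.27 (edgeR adjusted p = 0.878), with a change of sign without KFs replicate 3 (0.13). KFs exceeded TFs by 0.65 ± 0.20 (edgeR adjusted p = 0.0232), a call that was lost without KFs replicate 1 (0.52), KFs replicate 2 (0.49), TFs replicate 1 (0.60), TFs replicate 2 (0.68) or TFs replicate 3 (0.67). The exons of *Fgf2* overlap those of *Nudt6* on the other strand and of *Gm43439* on the same strand, and reads of the second of these could not be told apart by strand.

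*Fgf7* (chromosome 2, 126034658 to 126091185, plus strand) encodes keratinocyte growth factor, made by mesenchyme and sensed by epithelial FGFR2. Its levels in culture were 11.0, 12.8 and 15.5 CPM in HFc, 77.04, 75.0 and 69.7 CPM in KFc and 161, 154 and 158 CPM in TFc. They were 27.2, 30.2 and 39.0 CPM in HFs, 49.3, 75.3 and 13.6 CPM in KFs and 99.1, 86.2 and 79.8 CPM in TFs. The TFs libraries lay below the TFc libraries, and the HFs libraries above the HFc libraries, so the groups were closer together after transplantation.

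In heart fibroblasts *Fgf7* rose by 1.30 ± 0.38 on the log2 scale (edgeR adjusted p = 0.00883). The values of -0.68 ± 0.36 in kidney (edgeR adjusted p = 0.137) and -0.83 ± 0.36 in tail fibroblasts (edgeR adjusted p = 0.0816) did not pass, and the kidney value was -1.28 without KFs replicate 2 (adjusted p = 0.00752 by edgeR), which passed, and -0.29 without KFs replicate 3. Leaving out KFs replicate 3 also changed the spread for the other organs. The heart value was then 1.32 (edgeR adjusted p = 3.54e-06). The tail value was then -0.85 (edgeR adjusted p = 0.000232), still within the fold change limit of 1. The heart response exceeded the tail response by 2.13 ± 0.53 (edgeR interaction term, adjusted p = 0.0091) and the kidney response by 1.98 ± 0.53 (edgeR interaction term, adjusted p = 0.0119). HFc was below TFc (-3.59 ± 0.41, edgeR adjusted p = 3.75e-06) and HFs below TFs (-1.46 ± 0.37, edgeR adjusted p = 0.01), the latter missing the threshold without HFs replicate 1 (-1.31) or HFs replicate 2 (-1.38). KFc was below TFc (-1.09 ± 0.37, edgeR adjusted p = 0.0287), and this call was lost when any 1 of the 6 libraries was left out, although the value stayed between -1.12 and -1.05. Without KFs replicate 3, which is in neither group but shares the fit, it was -1.07 (edgeR adjusted p = 2.88e-05). KFs and TFs differed by -0.94 ± 0.37 (edgeR adjusted p = 0.0669), which passed without KFs replicate 2 (-1.49) or KFs replicate 3 (-0.50).

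*Fgf10* (chromosome 13, 118669791 to 118792115, plus strand) encodes a close relative of FGF7 that signals from mesenchyme to epithelium in budding organs. It was highest in KFc, with 22.3, 22.9 and 20.0 CPM, against 4.45, 3.34 and 3.29 CPM in TFc. In heart fibroblasts it was near or under the detection floor, at 0.255, 0 and 0.147 CPM in HFc (7, 0 and 3 counts) and 0.0601, 0.0441 and 0.418 CPM in HFs (1, 1 and 11 counts). KFs had 5.50, 2.50 and 1.68 CPM and TFs 1.39, 2.32 and 3.73 CPM, so that these groups overlapped.

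In kidney fibroblasts *Fgf10* fell, with a log2 fold change of -2.75 ± 0.53 (edgeR adjusted p = 0.000536), and -2.49 without KFs replicate 3 (adjusted p = 0.000474 by edgeR). In tail fibroblasts it was -0.57 ± 0.52 (edgeR adjusted p = 0.415). The response difference between heart and kidney, 3.29 ± 1.12 (edgeR interaction term, adjusted p = 0.0409), rests on counts near the floor in heart fibroblasts: it was 1.54 without HFs replicate 3, and it also missed the threshold without KFs replicate 2 (3.20), HFc replicate 2 (2.64), HFc replicate 3 (3.36) or any 1 of the KFc libraries (3.24 to 3.34), and with only the 4 groups compared in the fit (3.36). The kidney and tail responses differed by -2.18 ± 0.73 (edgeR adjusted p = 0.0673), which passed without KFs replicate 1 (-2.80), KFs replicate 3 (-1.91) or TFs replicate 1 (-2.46). In culture KFc exceeded TFc by 2.55 ± 0.52 (edgeR adjusted p = 0.00141), and after transplantation KFs and TFs differed by 0.37 ± 0.53 (edgeR adjusted p = 0.648), or by -0.25 without KFs replicate 1. *Fgf10* overlaps *Gm16263* on the other strand.

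*Hbegf* (chromosome 18, 36504927 to 36515805, minus strand) encodes a membrane-anchored ligand of the EGF receptor that is shed by proteases. The cultured libraries were close to each other, at 52.6, 54.9 and 49.3 CPM in HFc, 49.3, 49.4 and 45.7 CPM in KFc and 39.7, 39.5 and 44.6 CPM in TFc. After transplantation they were 21.3, 12.3 and 10.5 CPM in HFs, 17.3, 35.2 and 44.2 CPM in KFs and 32.1, 12.4 and 16.5 CPM in TFs. Each transplanted library was below every cultured library of its own organ.

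*Hbegf* fell, with log2 fold changes of -1.84 ± 0.35 in heart (edgeR adjusted p = 0.000334) and -1.02 ± 0.34 in tail fibroblasts (edgeR adjusted p = 0.0255), and was -0.58 ± 0.33 in kidney fibroblasts (edgeR adjusted p = 0.163), or -0.91 without KFs replicate 3. The value in tail fibroblasts lay at the limit of 1, and the call was lost without TFc replicate 3 (-0.98), TFs replicate 2 (-0.77) or TFs replicate 3 (-0.90), with DESeq2 or its size factors (-0.99 each), and with only the 2 groups in the fit (-0.996). HFs was below KFs (-1.14 ± 0.34, edgeR adjusted p = 0.018), which missed the threshold without HFs replicate 2 (-1.01), HFs replicate 3 (-0.93), KFs replicate 2 (-1.06) or KFs replicate 3 (-0.84). The difference between the heart and kidney responses was -1.26 ± 0.47 (edgeR adjusted p = 0.0613) and passed without HFs replicate 1 (-1.53) or KFs replicate 1 (-1.57).

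**Figure D3:**
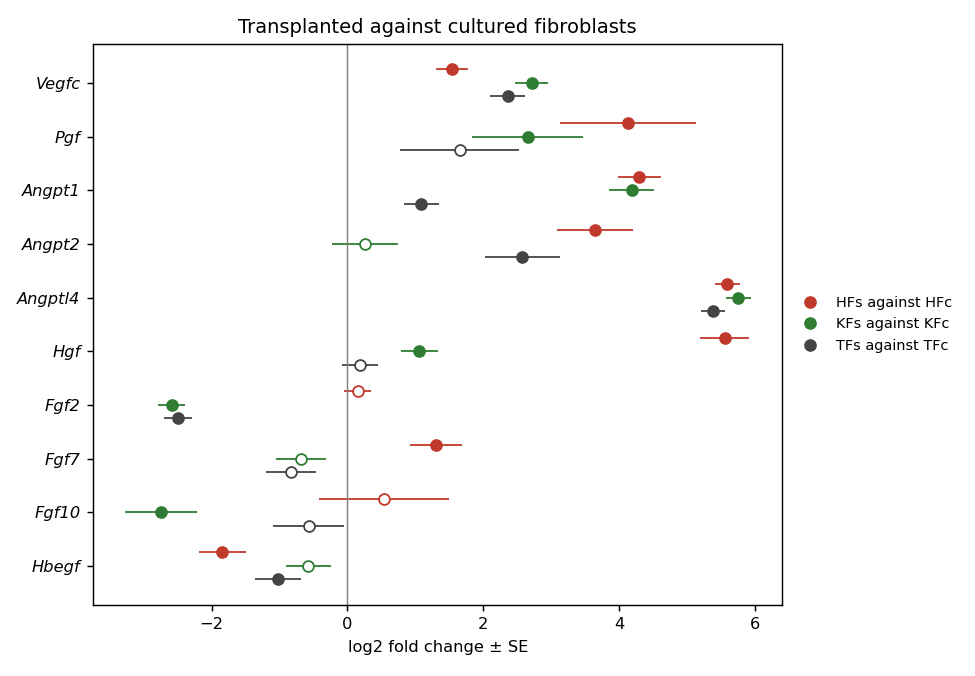
Log2 fold change of transplanted against cultured cells for each factor (x axis, with bars of 1 SE) in heart, kidney and tail fibroblasts, from edgeR fits to 18 libraries. Filled points passed an adjusted p of 0.05 and a log2 fold change beyond 1; *Vegfc*, *Angpt1* and *Angptl4* are filled and to the right of 0 in all 3 organs, whereas *Fgf2* is filled and to the left in kidney and tail fibroblasts.

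Seen together, 7 of the 10 factors had risen and 1 had fallen in HFs relative to HFc at an adjusted p of 0.05 and a log2 fold change beyond 1, where 27.7% of all 16577 genes tested passed (18.3% higher and 9.33% lower). In kidney fibroblasts 5 were higher and 2 lower, against 22.6% of all genes (14.7% higher and 7.99% lower), and in tail fibroblasts 4 were higher and 2 lower, against 16.5% of all genes (11% higher and 5.53% lower). The median log2 fold change of the 10 was 2.59 in heart, 0.66 in kidney and 0.64 in tail fibroblasts, beside medians of 0.047, 0.093 and 0 over all genes tested. The 10 factors were chosen with earlier results of these data known, so these counts and medians are a description and not a test. *Vegfc*, *Angpt1* and *Angptl4* were higher in all 3 organs, and the share of all genes tested with this pattern was not counted. The same 8 factors passed in heart fibroblasts without HFs replicate 2, and the same 7 in kidney fibroblasts without KFs replicate 3. In these bulk libraries a change in the share of cells that express a gene cannot be told apart from a change in RNA per cell.

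Between the organs in culture, 6 of the 10 factors differed between HFc and TFc at an adjusted p of 0.05 (edgeR), 1 higher and 5 lower, against 41.9% of all genes (20.9% higher and 21% lower). Between KFc and TFc 8 differed, 4 higher and 4 lower, against 36.4% of all genes (17.8% and 18.5%), and between HFc and KFc 8 differed, 2 higher and 6 lower, against 29.2% (15.1% and 14%). HFc was higher than TFc in *Vegfc* and lower in *Angpt1*, *Hgf*, *Fgf2*, *Fgf7* and *Fgf10*. KFc was higher than TFc in *Vegfc*, *Angpt2*, *Fgf2* and *Fgf10*, and lower in *Angpt1*, *Angptl4*, *Hgf* and *Fgf7*. HFc was higher than KFc in *Angptl4* (log2 difference 0.97 ± 0.17) and *Vegfc* (0.72 ± 0.24), and lower in *Pgf*, *Angpt2*, *Hgf*, *Fgf2*, *Fgf7* and *Fgf10*, of which *Fgf10* was the farthest apart (-7.33 ± 0.73, edgeR adjusted p = 2.19e-06). The *Vegfc* difference between HFc and KFc (edgeR adjusted p = 0.0331) lost its call when any 1 of these 6 libraries was left out, with values between 0.66 and 0.77, and that of *Pgf* (-3.48 ± 1.00, edgeR adjusted p = 0.0157) lost its call without HFc replicate 3 (-3.07). Without KFs replicate 3 both calls held, at 0.67 for *Vegfc* (edgeR adjusted p = 0.0237) and -3.51 for *Pgf* (edgeR adjusted p = 0.00579).

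After transplantation 4 of the 10 differed between HFs and TFs (edgeR), 1 higher and 3 lower, against 23.1% of all genes (10.3% higher and 12.7% lower). Between KFs and TFs 6 differed, 3 higher and 3 lower, against 29.1% of all genes (15.3% and 13.8%), and between HFs and KFs 4 differed, 2 higher and 2 lower, against 33.2% (14.2% and 19%). *Vegfc* was again higher in heart and in kidney than in tail fibroblasts, and *Angpt1* again lower. HFs was higher than KFs in *Angptl4* and *Hgf* and lower in *Fgf10* (-4.04 ± 0.70, edgeR adjusted p = 0.000474) and *Hbegf*. Without KFs replicate 3 the numbers were 6, 6 and 7, where *Vegfc* (-0.60), *Pgf* (-2.43), *Fgf2* (-0.55) and *Fgf7* (-0.94) passed between HFs and KFs and *Hbegf* (-0.84) did not. Without KFs replicate 1, 7 also passed between HFs and KFs, among them *Angpt1* (0.87), *Angpt2* (1.79) and *Pgf* (-2.29), and *Hbegf* passed between KFs and TFs (0.97), as it also did without TFs replicate 1 (1.15). The number between KFs and TFs was 3 without TFs replicate 2 or without TFs replicate 3, which cost the calls of *Pgf*, *Angptl4* and *Fgf2*. Scaling by library size alone shifted the median of all genes by -0.22 between HFs and TFs and by -0.20 between HFs and KFs, and 7 factors then passed between HFs and KFs. With only the 2 groups in the fit, 0 passed between HFs and KFs by edgeR (5 at an unadjusted p under 0.05, and 5 past the threshold by DESeq2 on all groups) and 2 between KFs and TFs.

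**Figure D4:**
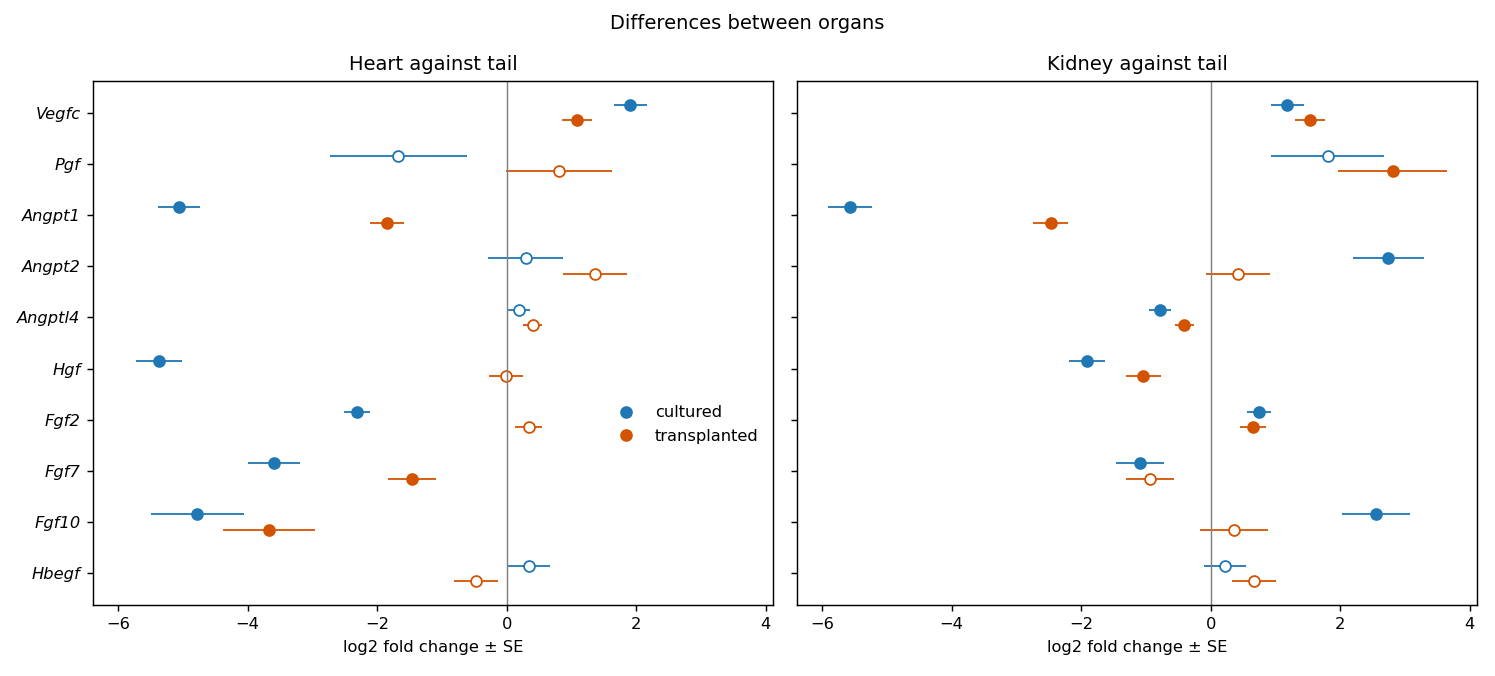
Log2 difference of heart (left) and kidney fibroblasts (right) from tail fibroblasts for each factor, in culture (blue) and after transplantation (orange), with bars of 1 SE and filled points at an adjusted p under 0.05 (edgeR). For heart against tail, *Hgf* moves from -5.37 in culture to -0.0086 after transplantation and *Angpt1* from -5.06 to -1.85, and for kidney against tail *Fgf10* moves from 2.55 to 0.37.

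The responses themselves were compared with interaction terms, which ask whether the response to the same site differed between organs of origin. Between heart and tail fibroblasts 4 of the 10 factors differed (*Angpt1*, *Hgf*, *Fgf2* and *Fgf7*, all higher in heart by edgeR), against 22.8% of all genes (10.1% higher and 12.7% lower), and *Pgf* also passed without TFs replicate 1 (4.56). Between heart and kidney fibroblasts 6 differed (*Vegfc*, *Angpt2*, *Hgf*, *Fgf2*, *Fgf7* and *Fgf10*, of which *Vegfc* was lower and the others higher in heart), against 26.2% of all genes (10.7% higher and 15.5% lower). Between kidney and tail fibroblasts only *Angpt1* differed (higher in kidney, against 11.1% of all genes, 4.99% higher and 6.07% lower), but *Angpt2* and *Fgf10* joined it without KFs replicate 1 or without TFs replicate 1, and *Angpt2*, *Hgf* and *Fgf10* without KFs replicate 3. These comparisons share the HFs, KFs and TFs libraries and their controls, so they are not independent of each other.

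Of 25 other ligands of the same families, 19 had enough counts to be tested, of which 3 rose and 5 fell in heart, 4 and 6 in kidney and 6 and 5 in tail fibroblasts. Of all genes tested, 18.3% were higher and 9.33% lower in heart fibroblasts at the same threshold. These shares were 14.7% and 7.99% in kidney and 11% and 5.53% in tail fibroblasts, and they stand beside every list below. *Egf*, whose product is the founding EGF receptor ligand and which the distal tubule of the kidney makes in quantity, rose by a log2 fold change of 4.82 ± 0.68 in heart, 2.89 ± 0.65 in kidney and 5.00 ± 0.71 in tail fibroblasts (edgeR adjusted p = 2.62e-05, 0.00178 and 6.22e-05). *Fgf11*, an intracellular FGF homologue, also rose in all 3 (3.95 ± 0.52, 3.02 ± 0.49 and 1.86 ± 0.49). *Fgf18*, a mesenchymal ligand, fell in all 3 (-2.75 ± 0.34, -2.73 ± 0.31 and -2.59 ± 0.37), and so did *Fgf13*, another intracellular homologue (-3.13 ± 0.34, -1.24 ± 0.32 and -1.41 ± 0.32). *Vegfa*, the main angiogenic ligand, passed in tail fibroblasts (1.94 ± 0.29, edgeR adjusted p = 8.56e-05) and had values of 0.71 ± 0.28 in heart and 0.37 ± 0.27 in kidney fibroblasts. *Vegfa* was named after its values were seen.

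Among 18 receptors and co-receptors 8 were higher and 1 lower in heart, 3 and 3 in kidney and 7 and 1 in tail fibroblasts. *Flt1*, the receptor of PlGF, rose in tail (4.07 ± 0.26, edgeR adjusted p = 3.87e-08) and kidney fibroblasts (1.13 ± 0.22, edgeR adjusted p = 0.000494) and was 0.15 ± 0.22 in heart fibroblasts, where it was already at 24.6 ± 0.463 CPM in HFc against 1.52 ± 0.355 CPM in TFc (SD, n = 3 each). *Tie1* and *Kdr*, receptors of endothelial cells, were low, at mean levels of at most 0.863 and 3.26 CPM; *Tie1* rose in all 3 organs, and *Kdr* in heart (3.32 ± 0.86) and tail fibroblasts (2.19 ± 0.81). *Erbb3*, a partner of the EGF receptor, rose in heart (3.62 ± 0.99) and tail fibroblasts (2.88 ± 0.99), at mean levels of at most 3.10 CPM.

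Genes that release, activate or bind the factors numbered 24 tested of 25, of which 6 were higher and 2 lower in heart, 5 and 4 in kidney and 3 and 3 in tail fibroblasts. *Adamts3*, the protease that cuts pro-VEGF-C to its active form, rose by 3.81 ± 0.46 in heart, 3.20 ± 0.43 in kidney and 1.60 ± 0.40 in tail fibroblasts (edgeR adjusted p = 5.34e-06, 2.17e-05 and 0.00513). *Ccbe1*, the cofactor of that cut, rose in heart (2.35 ± 0.28, edgeR adjusted p = 4.2e-06) and kidney fibroblasts (2.26 ± 0.24, edgeR adjusted p = 2.69e-06) and was 0.27 ± 0.23 in tail fibroblasts, where TFc already had 75.1 ± 2.42 CPM. *Vegfc* and *Adamts3* were thus both higher in all 3 organs, a pattern whose share over all genes was not counted. *Adam12*, a protease that can shed HB-EGF, rose in heart (2.22 ± 0.23) and kidney fibroblasts (2.24 ± 0.23).

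Of 12 feedback genes of FGF and EGF receptor signalling 1 was higher and 3 lower in heart, 1 and 4 in kidney and 2 and 1 in tail fibroblasts. *Errfi1*, an inhibitor of the EGF receptor, rose by 2.63 ± 0.15, 1.09 ± 0.14 and 1.86 ± 0.14 in heart, kidney and tail fibroblasts, and *Etv5*, a target of FGF signalling, fell (-1.13 ± 0.14, -1.33 ± 0.14 and -1.01 ± 0.14). *Spry4*, another target, fell in heart (-1.50 ± 0.22) and kidney fibroblasts (-1.52 ± 0.22) and was -0.73 ± 0.21 in tail fibroblasts. *Spry1* went in opposite directions, with a fall in kidney (-1.73 ± 0.35) and a rise in tail fibroblasts (1.26 ± 0.37).

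Of the hypoxia-responsive genes 14 of 15 were matched and tested, and 9 were higher and 1 lower in heart, 12 and 0 in kidney and 9 and 0 in tail fibroblasts. *Egln3*, an oxygen-sensing prolyl hydroxylase, rose by 4.68 ± 0.66, 4.82 ± 0.64 and 4.77 ± 0.67 in heart, kidney and tail fibroblasts (edgeR adjusted p = 2.28e-05, 1.98e-05 and 5.59e-05). *Bnip3*, a mitophagy receptor, rose by 3.27 ± 0.34, 3.48 ± 0.34 and 2.28 ± 0.32, and *Ankrd37* and *Ndrg1* also rose in all 3. The summed level of this list was 1215 to 1791 CPM in HFs against 1109 to 1155 CPM in HFc, 1273 to 2734 CPM in KFs against 630 to 648 CPM in KFc and 1365 to 2034 CPM in TFs against 692 to 731 CPM in TFc. The part of low oxygen in the rise of *Vegfc* and *Angptl4* was not tested.

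Of 11 PPAR target genes 4 were higher in heart, 1 was higher and 1 lower in kidney and 1 was higher in tail fibroblasts. *Pdk4*, an inhibitor of pyruvate dehydrogenase, rose in heart (1.15 ± 0.43) and fell in kidney fibroblasts (log2 fold change -1.38 ± 0.44). The fatty acid carriers *Fabp4* (3.88 ± 0.88) and *Cd36* (4.64 ± 0.86) rose in heart fibroblasts and did not pass in the others.

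Markers of kidney tubules moved with the transplanted state. The paper reads the rise of kidney-specific genes as a response of the transplanted fibroblasts. In bulk libraries that cannot be told apart from RNA of recipient cells. All 12 proximal tubule markers were higher in HFs than in HFc and in TFs than in TFc, and 9 of 12 were higher in KFs than in KFc. Their summed level was 124 to 1089 CPM in HFs against 23.3 to 27.3 CPM in HFc, and 132 to 332 CPM in TFs against 21.3 to 23.2 CPM in TFc. In kidney fibroblasts the sum was 63.7 to 119 CPM in KFs and 105 to 114 CPM in KFc, where *Lrp2* alone had a mean of 96.5 CPM in KFc. *Kap* and *Pck1*, both on the proximal tubule list, were at 0 in all cultured libraries and at 1.203 to 296 CPM and 4.07 to 57.1 CPM in the transplanted libraries. The 9 markers of loop, distal tubule and collecting duct summed to at most 0.432 CPM in any cultured library and to 13.7 to 93.2 CPM in the transplanted ones. HFs replicate 2 had 1089 CPM of proximal tubule markers and 234 CPM of *Angptl4*, and the other HFs libraries had 152 and 124 CPM of the markers and 250 and 353 CPM of *Angptl4*. Beyond such values, the part of recipient RNA in the levels of the 10 factors was not tested.

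Macrophage and leukocyte markers, of which 12 were tested, had none past the threshold in heart fibroblasts by edgeR (1 at an unadjusted p under 0.05), and 10 were lower in KFs than in KFc and 8 lower in TFs than in TFc. Their summed level was 537 to 584 CPM in KFc and 13.4 to 161 CPM in KFs, and 205 to 234 CPM in TFc and 42.5 to 50.6 CPM in TFs, beside the falls of *Fgf2* in these groups and of *Fgf10* in kidney fibroblasts. In heart fibroblasts the sums were 117 to 135 CPM in HFc and 107 to 177 CPM in HFs. Pericyte and smooth muscle markers had 1 higher and 4 lower of 7 tested in kidney fibroblasts, with a sum of 1616 to 1668 CPM in KFc and 146 to 238 CPM in KFs. Their part in these falls was not tested. A sort at harvest is described for the transplanted groups, and whether the cells had also been sorted before is not clear, so effects of the sort at harvest and of transplantation cannot be told apart.

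**Figure D5:**
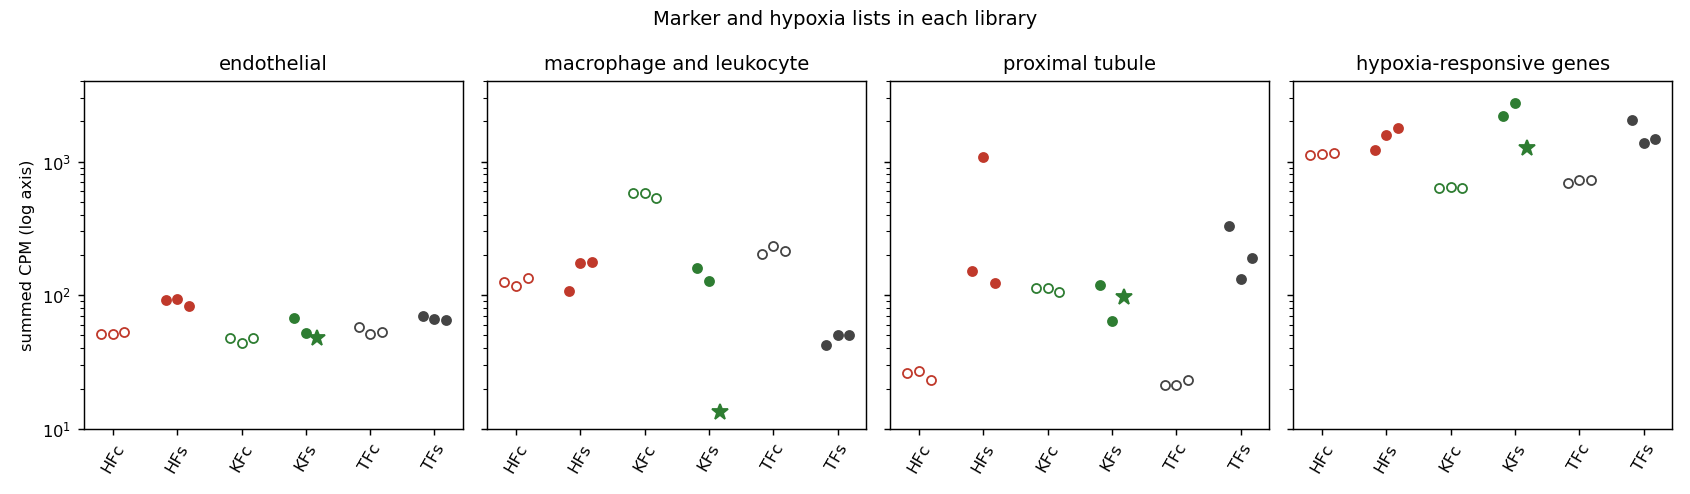
Summed CPM (log axis) of endothelial, macrophage and leukocyte, proximal tubule and hypoxia-responsive genes in each library, with open symbols for cultured and filled symbols for transplanted cells and a star for the library labelled KFs replicate 3. The highest proximal tubule sum, 1089 CPM, is that of HFs replicate 2, and the lowest macrophage sum, 13.4 CPM, that of KFs replicate 3.

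The genes whose log2 CPM followed each factor most closely over the 18 libraries are given as a description, since the libraries share groups and states. *Vegfc* ran closest to *Hpse* (Pearson's r = 0.954), which encodes heparanase, and to *Ddit4* (r = 0.952). *Angptl4* ran closest to *Gm6472* (r = 0.991) and to *Pck1* (r = 0.982), a regulator of gluconeogenesis that is on the proximal tubule list. *Angpt2* ran closest to the endothelial marker *Emcn* (r = 0.926) and to *Sp140* (r = 0.915). *Angpt1* ran closest to *Slpi* (r = 0.982) and *Mgst2* (r = 0.979), *Hgf* to *Samd14* (r = 0.974) and *Kcnd1* (r = 0.971), and *Pgf* to *Lonrf1* (r = 0.918) and *Jmy* (r = 0.916). The nearest genes were *Folr2*, a folate receptor gene known from tissue macrophages (r = 0.951), and *Prrg2* (r = 0.944) for *Fgf2*, *Serpinf1* (r = 0.956) and *Fmn2* (r = 0.936) for *Fgf7*, *Sh3kbp1* (r = 0.934) and *Adam23* (r = 0.932) for *Fgf10*, and *Nacc1* (r = 0.956) and *2510039O18Rik* (r = 0.949) for *Hbegf*. Among the 10 factors, the highest correlations were those of *Vegfc* with *Angptl4* (r = 0.81) and of *Angpt1* with *Hgf* (r = 0.80), and the lowest was that of *Angptl4* with *Hbegf* (r = -0.81).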

How the data were processed

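RNA was measured in 18 libraries, 3 in each of 6 groups read from the sample titles. According to the paper, the authors trimmed reads for quality and mapped them with Bowtie2, called by RSEM, on GRCm38, and the expected counts per gene were deposited without normalization, as whole numbers; the rounding step and the annotation release are not given in the sources used here. The submitters' processing notes list mm9, Bowtie and RSEM, which differs from the paper's GRCm38. RSEM was run for strand-specific reads of 75 bases, and the stranded total RNA kit is named for the cells from the kidney capsule.

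Symbols and positions came from GENCODE mouse release 21 (GRCm38), which held 37607 of the identifiers and lacked 1317 (0.277% of counts). All 10 factors and the other gene lists were chosen with earlier results of these data known. The quasi-likelihood test of edgeR 4.0.16 (R 4.3.3) was fitted to all 18 libraries with a mean for each group and the trended dispersion, after filterByExpr on the groups and with TMM factors from 0.903 to 1.15. Adjustment followed Benjamini and Hochberg over 16577 genes. Thresholds were an adjusted p of 0.05 and, for transplanted against cultured cells, a log2 fold change beyond 1. On simulated data for HFs against HFc, 187 of 200 changed genes among 16172 were found, with 3 false calls. The planted changes were of equal size, in genes well above the floor, with the trended dispersion and without a library that stood apart. It therefore gives no error rate for genes near the fold change limit or the floor.

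Text names all 10 factors, the 2 genes most correlated with each, and at most 4 genes per list, those past the threshold in most of the 3 transplant comparisons; single marker genes were named after their values were seen. Some genes of the lists are not reported here by name. TPM used union exon lengths. Promoters were read from RefSeq windows (GRCm38.p6), leaving out the 50 bases after the start. Alternatives were DESeq2 1.42.0, DESeq2's size factors, library size alone, no filter, a replicate block, only the groups compared, another fold change limit, and each library left out. Figures and lists used Python 3.11.15, numpy 2.4.6, pandas 2.3.3 and matplotlib 3.10.9.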

Additional observations from a re-analysis of the deposited data

Results flagged for a closer look

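The response to transplantation differed between organs of origin for several factors by an interaction term in edgeR (adjusted p under 0.05 over all genes tested), and these results are listed as values. Between heart and tail fibroblasts the log2 responses differed by 3.21 for *Angpt1*, 5.36 for *Hgf*, 2.64 for *Fgf2* and 2.13 for *Fgf7*, in each case higher in heart. Between kidney and tail fibroblasts the difference was 3.10 for *Angpt1*. Between heart and kidney fibroblasts it was 3.39 for *Angpt2*, 4.49 for *Hgf*, 2.74 for *Fgf2*, 1.98 for *Fgf7* and 3.29 for *Fgf10*, all higher in heart, and -1.17 for *Vegfc*, higher in kidney. The *Fgf10* and *Vegfc* differences between heart and kidney are those whose calls were lost when single libraries were left out, and *Fgf10* had at most 11 counts in any heart library. Groups of 3 libraries are too small for a test of single outlying libraries.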

How the results depend on the processing

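Of 120 comparisons of a factor, 68 passed their threshold. Over all alternatives, 168 of 181 counts of factors past a threshold stayed within 1.5 times the reported count and 13 moved, and of 1689 values of single factors 28 changed sign, 65 lost and 48 gained their call. Of the counts, that between KFs and TFs went from 6 to 2 with only the groups compared in the fit, and from 3 to 6 when libraries were left out in turn. That between HFs and KFs went from 4 to 7 with library size alone and to 0 with only the groups compared (edgeR; 5 at an unadjusted p under 0.05, and 5 past the threshold by DESeq2 on all groups), where the 2 groups alone set the spread, and from 3 to 7 when libraries were left out. The count of response differences between kidney and tail went from 1 to 2 with library size alone, 3 with DESeq2 and 2 with only the groups compared, and from 1 to 4 when libraries were left out. The cause was not tested in the other cases. For *Hgf*, HFs against TFs was -0.0086 and became 0.026 with DESeq2 or its size factors, 0.0083 without the filter and 0.031 with only the groups compared, and lay from -0.12 to 0.067 when libraries were left out.

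Leaving out libraries changed the sign of values that had not passed: *Fgf10* in the heart response (-1.23 to 1.56), *Angpt2* in the kidney response (-0.59 to 0.60), *Pgf* in the tail response (-0.44 to 2.14), *Angpt2* between HFc and TFc (-0.0091 to 0.67), *Hbegf* between HFs and TFs (-0.79 to 0.0086), *Angpt2* (-0.43 to 0.81) and *Fgf10* (-0.25 to 0.79) between KFs and TFs, *Fgf7* between HFs and KFs (-0.94 to 0.047), *Fgf10* in the response difference of heart and tail (-0.67 to 2.13), *Vegfc* (-0.035 to 0.49), *Pgf* (-0.30 to 3.09), *Fgf2* (-0.28 to 0.13) and *Fgf7* (-0.42 to 0.56) in that of kidney and tail, and *Angpt1* (-0.22 to 0.45) and *Angptl4* (-0.30 to 0.022) in that of heart and kidney.

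No pairing by the replicate numbers in the titles was seen: deviations of same-numbered cultured and transplanted libraries correlated by -0.042 to 0.045, and only 3 of 9 pairs correlated best with their own number. Such a check cannot show that the samples were unpaired. With the replicate block the counts of factors past the threshold were as reported in 11 of 12 comparisons, for example 8, 7 and 6 in the heart, kidney and tail responses, and 5 in place of 6 between KFs and TFs, where *Angptl4* had an adjusted p of 0.0673 (edgeR).

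Depth limits *Fgf10* in heart fibroblasts and *Pgf* in HFc, which were near the floor of 3 counts.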
